A study of Mus musculus with 12 samples.

Results

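The genes described here are 10 mouse genes of the integrated stress response and the unfolded protein response: Atf4, Atf3, Ddit3, Trib3, Asns, Chac1, Psat1, Phgdh, Hspa5 and Fgf21. They were found by their NCBI Gene numbers among the 27179 genes of a table of whole-kidney RNA sequencing, and 9 of the 10 reached 1 TPM (a gene's share of the library's transcripts, corrected for gene length) in at least 3 of 12 libraries and were tested, among 14972 genes in all. Fgf21 did not. No gene among the 9 reached that minimum through 1 group alone.

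Cells that run short of amino acids, carry misfolded protein in the endoplasmic reticulum or suffer mitochondrial damage phosphorylate the initiation factor eIF2, which slows translation in general and raises translation of the transcription factor ATF4. ATF4, often with C/EBP partners, then switches on genes for amino acid synthesis and import, tRNA charging, redox balance and cell death. The unfolded protein response of the endoplasmic reticulum has 3 sensors, PERK (the gene Eif2ak3), ATF6 and IRE1 (Ern1), of which PERK feeds into ATF4 while ATF6 and IRE1 drive chaperone genes such as Hspa5. Kidney proximal tubule cells, which take up cisplatin, are a tissue in which this response is often studied.

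The 12 libraries fell into 4 groups of 3, since mice of either genotype, wild-type or FAN1KO, were given either saline or cisplatin. FAN1KO mice carried γGT1-Cre;Fan1-/-, in which Cre is active in proximal tubule cells, so other cells of the kidney keep the DNA repair nuclease FAN1, and whether the wild-type mice carried Cre is not given. Mice were of mixed strain background and 8 to 12 weeks old, and cisplatin was injected into the peritoneum at 2 mg/kg each week for 5 weeks. The labels do not say that each library is a different mouse, so p-values measure the spread between libraries.

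Several facts of the libraries bear on the values below. TPM values of a library move in steps of 1 read, which gave back the reads: 37200269 to 82944869 per library, with 1 read in a gene of 1 kb worth at most 0.0479 TPM. Fan1 TPM read 1.17, 1.54 and 2.28 in FAN1KO and 3.80, 3.35 and 1.98 in wild-type saline kidneys. Under cisplatin it read 2.72, 3.51 and 1.55 in FAN1KO and 2.33, 3.57 and 3.32 in wild-type kidneys. The genotypes overlapped in both treatments, in saline through wild-type replicate 3 alone, so Fan1 gave no clear check of the labels. Y-linked RNA stood at a mean log2(TPM + 1) of 3.46 to 3.93 in 4 libraries, replicate 3 of wild-type saline, replicate 1 of FAN1KO saline, replicate 1 of wild-type cisplatin and replicate 3 of FAN1KO cisplatin, and at 0.104 or below in the other 8, and calls among the 10 genes that change without those 4 libraries are given with their values. The 6 proximal tubule markers were read in every library, with a summed level of 3764 to 3936 TPM in wild-type and 3531 to 5075 TPM in FAN1KO kidneys after saline, and of 3069 to 4197 TPM and 1234 to 2282 TPM after cisplatin. In whole kidney, fewer cells of a type and less RNA per cell cannot be told apart.

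The promoters of these genes are shown first, because some of the 10 genes hold sequence elements that ATF4 and ATF6 are known to bind. Promoters were the 250 bases before and 50 bases after the RefSeq start site (GRCm38.p6), and all 10 genes had one. The core of the C/EBP-ATF composite element, TGATGNAA (TTNCATCA on the other strand), was found on either strand in 5 of the 10, Atf3, Chac1, Asns, Fgf21 and Trib3, against 3.97% of 32851 mouse promoters and 2.33% of the 14131 promoters of genes tested. The endoplasmic reticulum stress response element, CCAAT and CCACG with any 9 bases between, was found in Hspa5 only, against 0.119% of all promoters. The CRE octamer TGACGTCA was in none of the 10 and in 1.79% of all promoters. No match of one element overlapped a match of another in these promoters. The stretches below are given 5′ to 3′ along the gene, with the element in capitals, at chr1:191183410-191183469 (minus strand, element beginning 110 bases before the start), chr2:119351023-119351082 (plus, 193 before), chr6:7693214-7693243 (minus, 23 before), chr7:45615596-45615655 (minus, 139 before), chr2:152344029-152344056 (minus, from base 15 of the transcript) and chr2:34772020-34772048 (plus, 65 before).
Atf3: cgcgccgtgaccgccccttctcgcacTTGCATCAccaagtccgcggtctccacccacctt
Chac1: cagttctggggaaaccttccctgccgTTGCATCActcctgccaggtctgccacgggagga
Asns: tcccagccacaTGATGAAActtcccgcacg
Fgf21: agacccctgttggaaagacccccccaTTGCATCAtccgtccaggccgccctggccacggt
Trib3: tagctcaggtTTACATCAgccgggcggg
Hspa5: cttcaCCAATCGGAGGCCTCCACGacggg

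The same elements were looked for in the promoters of the pathway lists used further below. Of the endoplasmic reticulum sensor, chaperone and folding genes, 6 of 15 with a promoter held the stress response element (Calr, Canx, Creld2, Dnajc3, Hsp90b1 and Pdia6) and 0 held the C/EBP-ATF core. Cytosolic aminoacyl-tRNA synthetases held the C/EBP-ATF core in 5 of 13 (Aars, Gars, Iars, Tars and Yars) and the stress response element in 0. Other ATF4 targets held the core in 4 of 18 (Nupr1, Pycr1, Slc7a11 and Vldlr). Genes of endoplasmic reticulum-associated degradation held both elements, the core in 1 of 9 (Herpud1) and the stress response element in 2 (Derl3 and Syvn1). Of the 7 eIF2 genes with a promoter, 1, Ppp1r15a, held the CRE octamer, and the mitochondrial chaperones and proteases held none of the 3 elements. The stretch around the element in Creld2, whose RNA is compared with that of Hspa5 below, lies at chr15:88819494-88819564 on the plus strand, with the element on the other strand beginning 126 bases before the start. A match is a run of letters and not a measured binding site, and Atf4, Ddit3, Psat1 and Phgdh held none of the 3 elements in these windows.
Creld2: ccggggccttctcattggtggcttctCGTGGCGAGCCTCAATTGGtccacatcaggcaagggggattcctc

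Under cisplatin, 7 of the 9 tested genes were higher in FAN1KO than in wild-type kidneys: Phgdh, Atf3, Trib3, Ddit3, Chac1, Asns and Atf4. Means rose from 1.66-fold for Atf4 to 5.66-fold for Phgdh, and no library of one genotype overlapped the other for any of the 7. Neither Hspa5 nor Psat1 passed the test. In this comparison 23.9% of all genes tested were called by limma at an adjusted p under 0.05, 19.6% higher and 4.37% lower, and the groups did not overlap with FAN1KO above for 35.7% of genes and below for 8.60%. The median log2 difference was 1.12 for the 9 genes and 0.24 for all genes. With median-ratio scaling, which centres each library on its typical gene, these were 0.91 and −0.02, 6 of the 9 were called, and the 2931 higher and 654 lower calls among all genes became 1300 and 1154. With 3 libraries against 3, the exact permutation test cannot give a p below 0.1, and it gave 0.1 for each of the 7.

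**Figure D1:**
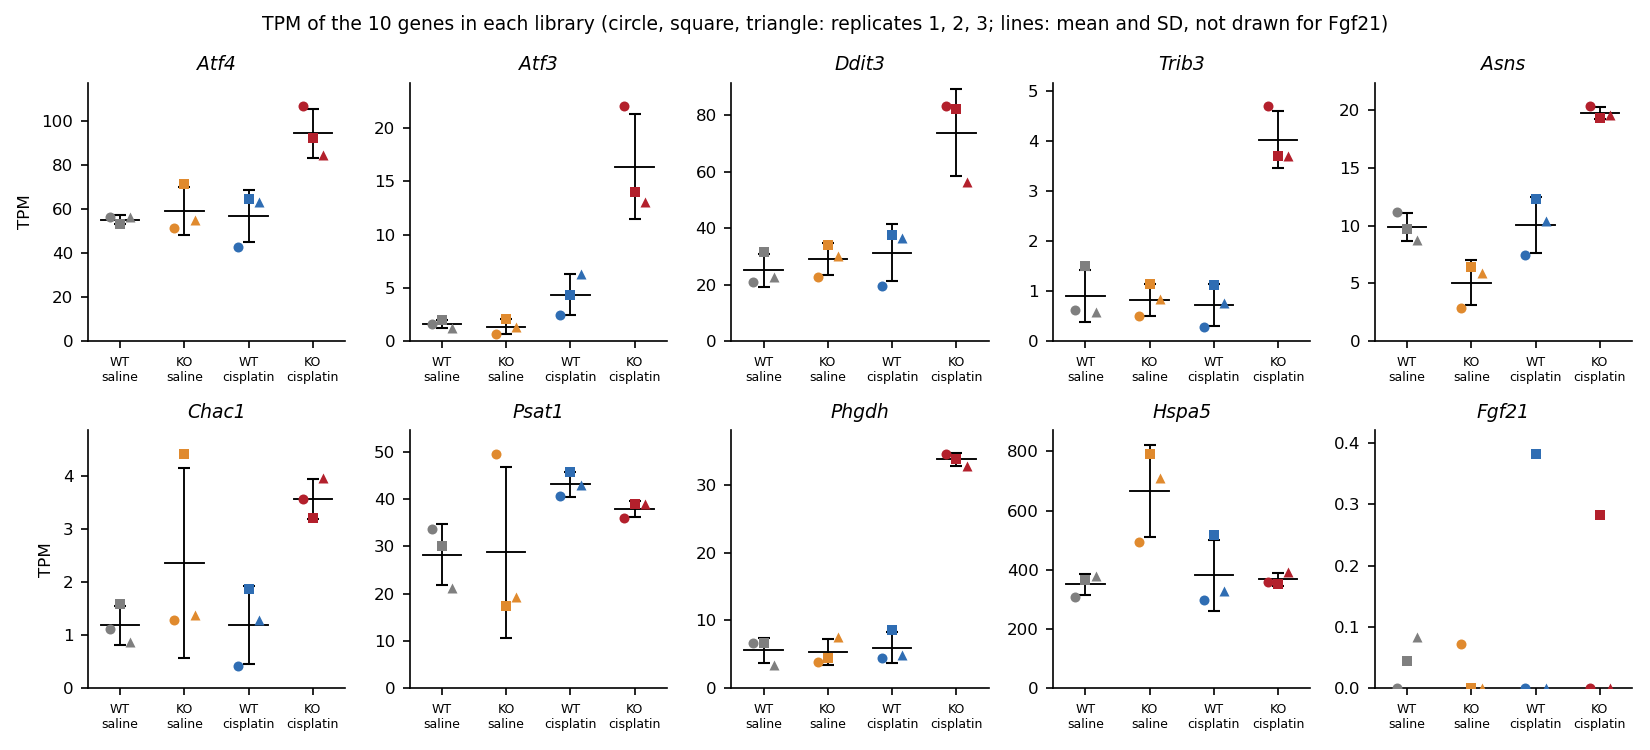
TPM of the 10 genes in each of the 12 libraries (linear axes from 0; circle, square and triangle are replicates 1, 2 and 3, lines the mean and SD of 3 libraries, not drawn for Fgf21). The 3 FAN1KO cisplatin libraries lie above all 9 others for Atf4, Atf3, Ddit3, Trib3, Asns and Phgdh, while Hspa5 is highest in FAN1KO saline libraries 2 and 3.

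Atf4 (chr15:80255184-80257545), the transcription factor at the centre of the response, was at 56.1, 52.9 and 56.2 TPM in wild-type saline, 51.1, 71.3 and 54.7 in FAN1KO saline, 42.9, 64.3 and 62.9 in wild-type cisplatin and 106, 92.1 and 84.3 in FAN1KO cisplatin kidneys. The first 3 groups overlapped one another, and the lowest FAN1KO cisplatin library was above every other library. Under cisplatin the FAN1KO mean was 94.3 ± 11.2 TPM (SD, n = 3) and the wild-type mean 56.7 ± 12.0, a log2 difference of 0.74 (SE 0.17, limma adjusted p 0.0125). With median-ratio scaling it was 0.44 (limma adjusted p 0.0440), and without FAN1KO cisplatin replicate 1 it was 0.65 (0.0596). Atf4 is controlled above all in translation, which RNA levels do not show.

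Atf3 (chr1:191170296-191183333), a stress-induced transcription factor of the same family, was low in saline, at 1.60, 2.01 and 1.19 TPM in wild-type and 0.658, 2.12 and 1.27 TPM in FAN1KO kidneys. Wild-type cisplatin libraries read 2.48, 4.31 and 6.29 TPM and FAN1KO cisplatin libraries 22.0, 14.0 and 13.1 TPM. The wild-type cisplatin libraries were thus all above the saline libraries of both genotypes, and the FAN1KO cisplatin libraries all above them in turn. The difference between genotypes under cisplatin was 1.73 on the log2 scale (SE 0.32, limma adjusted p 0.00455), with means 3.76-fold apart.

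Ddit3 (chr10:127290793-127296291), which encodes the pro-apoptotic factor CHOP, read 20.8, 31.5 and 22.8 TPM in wild-type saline, 22.8, 34.1 and 30.0 in FAN1KO saline and 19.6, 37.8 and 36.4 in wild-type cisplatin kidneys. In FAN1KO cisplatin kidneys it read 83.1, 82.2 and 56.2 TPM. The 3 other groups overlapped and FAN1KO cisplatin stood apart, 2.36-fold above wild-type cisplatin by means (log2 difference 1.25, SE 0.27, limma adjusted p 0.00937). Ddit3 overlaps Mars1 by 71 bases and Mbd6 by 77 bases in RefSeq, and whether the counting used strand is not given in the sources used here.

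Trib3 (chr2:152337425-152344060), a pseudokinase induced by ATF4 and CHOP, was low in 3 groups: 0.625, 1.51 and 0.574 TPM in wild-type saline, 0.501, 1.14 and 0.838 in FAN1KO saline and 0.288, 1.13 and 0.770 in wild-type cisplatin kidneys. FAN1KO cisplatin kidneys held 4.68, 3.69 and 3.70 TPM. Between 20 and 201 reads lay behind each of these values. The log2 difference of TPM + 1 between genotypes under cisplatin was 1.56 (SE 0.25, limma adjusted p 0.00237), while the ratio of the mean TPM was 5.53, since adding 1 to each value shrinks the change of a low gene. By voom on the recovered reads the log2 difference was 2.69 (adjusted p 0.00423).

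Chac1 (chr2:119351242-119354326), which degrades glutathione, was also low, with 22 to 166 reads per library. It read 1.12, 1.59 and 0.865 TPM in wild-type saline, 1.29, 4.43 and 1.38 in FAN1KO saline, 0.415, 1.88 and 1.28 in wild-type cisplatin and 3.56, 3.21 and 3.97 in FAN1KO cisplatin kidneys. The FAN1KO saline library 2 was above all 3 FAN1KO cisplatin libraries, so the 2 FAN1KO groups overlapped. Its call under cisplatin (log2 difference 1.12, SE 0.35, limma adjusted p 0.0401) was the least secure of the 7. Without the 4 libraries with Y-linked RNA limma's adjusted p was 0.130, with median-ratio scaling 0.0686 and with no filter on low values 0.0561. The call was also lost on leaving out each of 7 libraries, with limma adjusted p up to 0.145 without wild-type cisplatin replicate 1.

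Asns (chr6:7675165-7693209), asparagine synthetase, read 11.2, 9.71 and 8.79 TPM in wild-type and 2.83, 6.45 and 5.85 TPM in FAN1KO kidneys after saline, so all 3 FAN1KO libraries were below all 3 wild-type libraries. Under cisplatin the wild-type libraries read 7.47, 12.3 and 10.4 TPM and the FAN1KO libraries 20.3, 19.3 and 19.6 TPM, and all 3 FAN1KO libraries were above all 3 wild-type libraries. The cisplatin difference was 0.93 on the log2 scale (SE 0.25, limma adjusted p 0.0217), and limma's adjusted p was 0.0827, 0.0774 and 0.0613 without wild-type cisplatin replicate 1, FAN1KO cisplatin replicate 1 and FAN1KO cisplatin replicate 2. The saline difference, FAN1KO minus wild-type, was −0.90 on the log2 scale (SE 0.25, limma adjusted p 0.196) and did not pass the test. It passed with median-ratio scaling (limma adjusted p 0.0438), with a Y-linked covariate (0.0210) and without the 4 libraries with Y-linked RNA (0.0484).

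Phgdh (chr3:98313171-98339969), which makes the first step of serine synthesis from a glycolytic intermediate, had the widest separation. It read 6.70, 6.63 and 3.39 TPM in wild-type saline, 3.90, 4.50 and 7.50 in FAN1KO saline and 4.41, 8.60 and 4.88 in wild-type cisplatin kidneys, against 34.6, 33.9 and 32.7 TPM in FAN1KO cisplatin kidneys. The FAN1KO cisplatin libraries were close to each other and far above every other library, and the 3 other groups overlapped. The log2 difference between genotypes under cisplatin was 2.37 (SE 0.29, limma adjusted p 0.000704), and no alternative fit or left-out library ended this call.

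Psat1 (chr19:15905123-15925059), the next enzyme of the serine route after Phgdh, did not follow it. Wild-type libraries read 33.6, 30.0 and 21.1 TPM in saline and 40.6, 45.8 and 43.0 TPM under cisplatin. FAN1KO libraries read 49.6, 17.4 and 19.2 TPM in saline and 36.0, 39.0 and 38.9 TPM under cisplatin. Under cisplatin the 3 FAN1KO values were all below the 3 wild-type values, but the log2 difference was −0.18 (limma adjusted p 0.713). Its 95% confidence interval, which uses the spread of all 4 groups, ran from −0.89 to 0.53 and so held falls and rises alike. Without the 4 libraries with Y-linked RNA the difference was −0.24 (limma adjusted p 0.105). FAN1KO saline replicate 1, which is 1 of the 4 libraries with Y-linked RNA, held the most Psat1 of all 12 libraries.

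**Figure D2:**
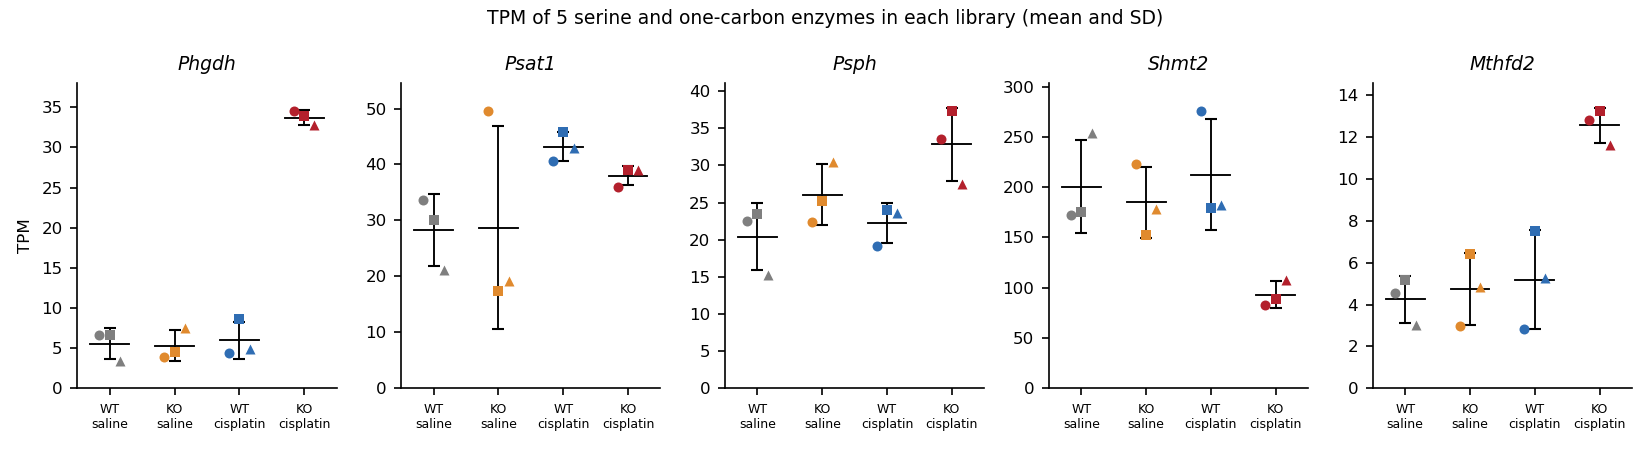
TPM of 5 enzymes of serine synthesis and mitochondrial one-carbon metabolism in each library (linear axes from 0; circle, square and triangle are replicates 1, 2 and 3, lines the mean and SD of 3 libraries). In FAN1KO cisplatin kidneys Phgdh and Mthfd2 lie above and Shmt2 lies below all other groups, while Psat1 overlaps saline values.

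The enzymes around Phgdh and Psat1 moved in both directions, as the plot of 5 serine and one-carbon enzymes shows. Psph, which completes serine synthesis, read 33.6, 37.4 and 27.6 TPM in FAN1KO and 19.1, 23.9 and 23.7 TPM in wild-type cisplatin kidneys, a log2 difference of 0.54 that did not pass (limma adjusted p 0.0594; 0.00971 without the 4 libraries with Y-linked RNA). Mthfd2, a mitochondrial folate enzyme, rose to 12.8, 13.3 and 11.6 TPM from 2.81, 7.51 and 5.27 TPM (log2 difference 1.20, limma adjusted p 0.0190; 0.0676 without FAN1KO cisplatin replicate 1). Shmt2, which passes the one-carbon unit of serine to folate in mitochondria, fell to 82.6, 89.2 and 108 TPM from 276, 179 and 183 TPM (log2 difference −1.16, limma adjusted p 0.00486). Psph and Mthfd2 were named after their values were seen.

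Hspa5 (chr2:34772090-34776529) encodes BiP, the main chaperone of the endoplasmic reticulum and the usual marker of its unfolded protein response. Wild-type libraries read 309, 364 and 379 TPM in saline and 298, 519 and 329 TPM under cisplatin. FAN1KO libraries read 493, 792 and 711 TPM in saline and 360, 352 and 392 TPM under cisplatin. The FAN1KO saline libraries were above all wild-type saline libraries, and the FAN1KO cisplatin libraries lay within the range of the wild-type cisplatin libraries. The genotype difference under cisplatin was −0.01 on the log2 scale, with a 95% confidence interval from −0.49 to 0.47. In saline it was 0.90 (SE 0.22, limma adjusted p 0.125), which did not pass the test but did with a Y-linked covariate (limma adjusted p 0.0466) and without the 4 libraries with Y-linked RNA (0.0396). Hspa5 overlaps Rabepk over 1921 bases in RefSeq, and reads of the 2 genes cannot be told apart there if the counting did not use strand.

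Fgf21 (chr7:45613890-45615490), a secreted hormone that ATF4 can induce, was barely read. Of the 12 libraries 7 were at 0, and the others held 1, 4, 2, 8 and 6 reads, with 0.383 TPM in wild-type cisplatin replicate 2 and 0.282 TPM in FAN1KO cisplatin replicate 2 as the highest values. A count of 0 allows up to 3 reads, or 0.0940 to 0.152 TPM in the 7 libraries, for counting error only. No difference between groups was detectable at this depth.

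**Figure D3:**
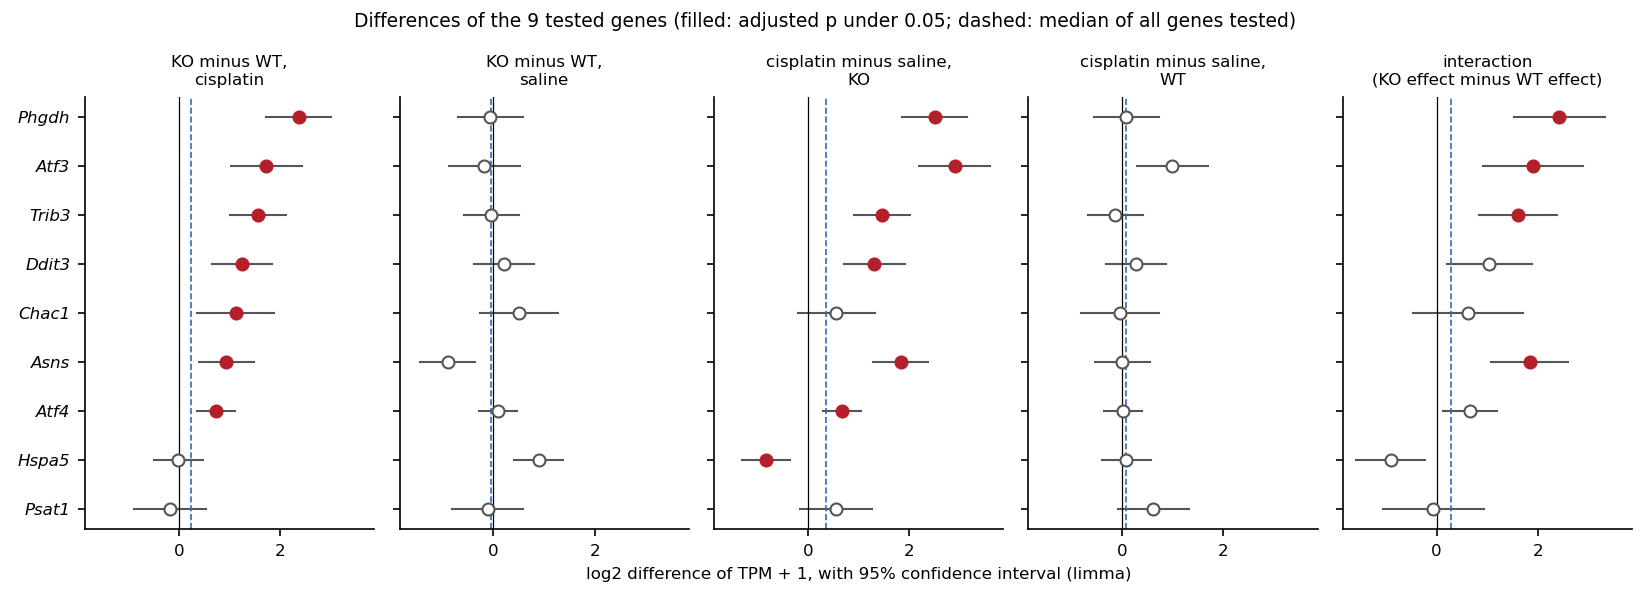
Differences of the 9 tested genes in log2(TPM + 1) with limma's 95% confidence intervals, for 4 comparisons of groups and the interaction (filled points have an adjusted p under 0.05, and the dashed line is the median of all genes tested). Filled points number 7, 0, 7, 0 and 4 from left to right, with Hspa5 the filled point below 0 in FAN1KO.

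Cisplatin against saline within FAN1KO kidneys gave 7 calls, 6 higher and 1 lower, where 39.8% of all genes were called, 34.9% higher and 4.90% lower. The groups did not overlap for those 7, as for 47.4% of all genes with cisplatin above and 7.43% with cisplatin below. Atf3 rose by 2.90 on the log2 scale, Phgdh by 2.50, Asns by 1.84, Trib3 by 1.47, Ddit3 by 1.32 and Atf4 by 0.67, with limma adjusted p from 0.000204 for Atf3 to 0.0110 for Atf4. By means, Atf3 was 12.1-fold and Phgdh 6.36-fold above FAN1KO saline. Hspa5 was the 1 gene that was lower, with a log2 difference of −0.83 (SE 0.22, limma adjusted p 0.0131). Chac1 (0.56) and Psat1 (0.55) did not pass, but without the 4 libraries with Y-linked RNA Psat1 did, with a log2 difference of 1.00 (limma adjusted p 0.000443). All genes tested had a median log2 difference of 0.37 here; with median-ratio scaling, which brings that median to −0.03, the Atf4 difference was 0.21 and no longer passed (limma adjusted p 0.239), while Ddit3 was at 0.86 and Hspa5 at −1.29. Without FAN1KO cisplatin replicate 1 the limma adjusted p of Atf4 was 0.0508, and leaving out FAN1KO saline replicate 1 or 2 brought in Psat1 or Chac1 as an eighth call.

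In wild-type kidneys, cisplatin gave 0 calls among the 9 genes by limma, also with voom on the recovered reads, and 1 of the 9, Atf3, had an unadjusted p under 0.05. Across all genes 0.0601% were called, all of them higher, and 449 of 14972 had an unadjusted p under 0.05 by limma. Atf3 had a log2 difference of 0.99 (SE 0.32, limma adjusted p 1), with means 2.73-fold apart and no overlap between the groups, and Psat1 had 0.62 with no overlap either. Among all genes, 5.20% had all 3 cisplatin libraries above all 3 saline libraries and 1.08% below. The other 7 genes overlapped, with log2 differences from −0.13 for Trib3 to 0.28 for Ddit3, and those of Asns, Atf4, Hspa5 and Phgdh changed sign under median-ratio scaling. For Ddit3 the 95% confidence interval ran from −0.32 to 0.87 and so held falls and rises alike.

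Between genotypes in saline, limma called 0 of the 9 genes, where 0.768% of all genes were called, 0.341% higher and 0.427% lower. An unadjusted p under 0.05 by limma was found for 2 of the 9, against 1255 of all 14972 genes tested. The 2 were Hspa5, which was 1.90-fold higher by means in FAN1KO kidneys, and Asns, whose FAN1KO mean was 0.510 of the wild-type mean. Neither overlapped between genotypes, as 4.62% of all genes with FAN1KO above and 7.83% with FAN1KO below. Voom on the recovered reads also called 0, and without the 4 libraries with Y-linked RNA 3 genes were called, Hspa5 higher and Asns and Psat1 lower. The other 7 genes overlapped between genotypes in saline.

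The interaction, which asks whether the effect of cisplatin differed between genotypes, was called for Phgdh, Asns, Trib3 and Atf3, where 6.24% of all genes were called, 5.22% with a positive and 1.02% with a negative value. Phgdh responded to cisplatin by 2.42 more on the log2 scale in FAN1KO than in wild-type kidneys (SE 0.41, limma adjusted p 0.0134), Atf3 by 1.91, Asns by 1.83 and Trib3 by 1.60. Ddit3 (1.04, limma adjusted p 0.122) and Atf4 (0.65, 0.125) did not pass, nor did Hspa5 at −0.91 (0.101), although a Y-linked covariate brought all 3 under the threshold. Hspa5 also passed with median-ratio scaling (−1.27, limma adjusted p 0.0490) and without the 4 libraries with Y-linked RNA (−1.37, 0.0239), where Psat1 passed as well (0.53, 0.0477). Phgdh kept its call on leaving out each of the 12 libraries. Asns lost it without wild-type saline replicate 1 (limma adjusted p 0.0540) or FAN1KO cisplatin replicate 1 (0.0524), and Atf3 and Trib3 lost theirs without each of 8 and 7 libraries, with adjusted p up to 0.0965 and 0.0816 without FAN1KO cisplatin replicate 1.

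Over the 12 libraries, the tested genes with the profile most similar to that of Hspa5, by the root mean square difference of centred log2(TPM + 1), were Hyou1, a chaperone (0.0764), and Creld2, an endoplasmic reticulum stress protein (0.141). Hyou1 read 64.2, 104 and 82.8 TPM in FAN1KO saline against 39.7, 48.8 and 47.7 TPM in wild-type saline kidneys, and 49.5, 50.6 and 49.2 TPM in FAN1KO cisplatin kidneys. Creld2 read 88.2, 153 and 106 TPM against 47.1, 58.8 and 70.7 TPM in saline, and 58.9, 67.4 and 65.3 TPM in FAN1KO cisplatin kidneys. In each of the 3 genes FAN1KO saline libraries were the highest of the saline libraries, with no overlap. Hyou1 and Creld2 were picked for their likeness to Hspa5 over these same libraries, so a shared pattern was built into the choice.

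**Figure D4:**
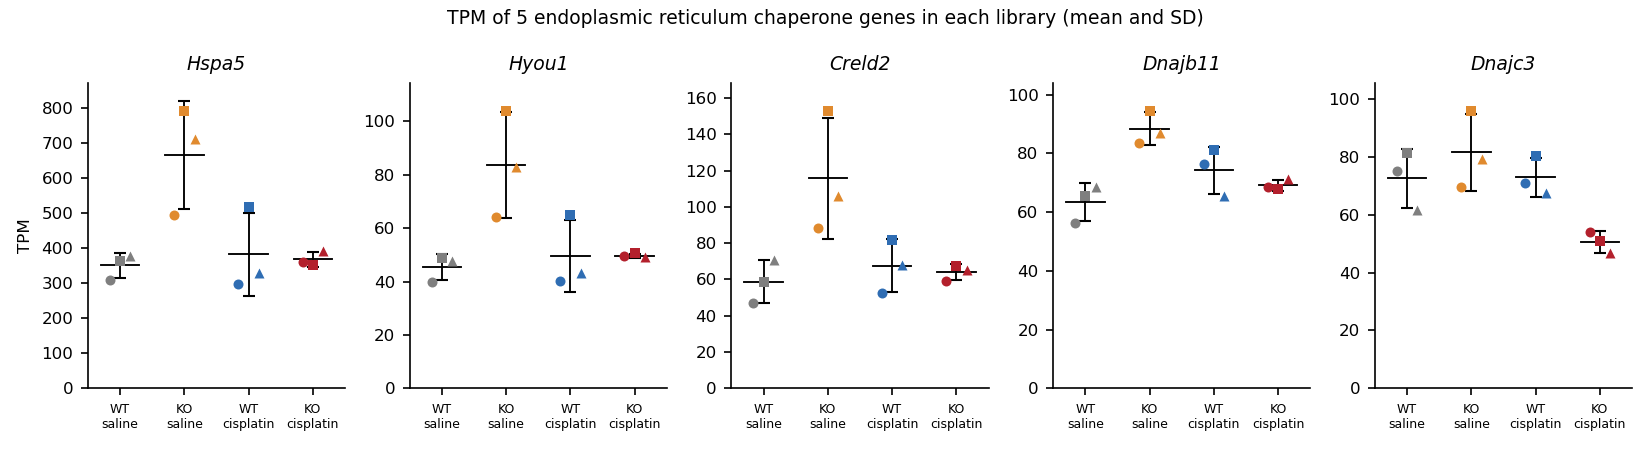
TPM of Hspa5 and 4 other endoplasmic reticulum chaperone genes in each library (linear axes from 0; circle, square and triangle are replicates 1, 2 and 3, lines the mean and SD of 3 libraries). Hspa5, Hyou1, Creld2 and Dnajb11 are higher in FAN1KO saline than in wild-type saline libraries with no overlap, and in FAN1KO cisplatin kidneys all 5 lie below their FAN1KO saline values. Hyou1 and Creld2 were picked for likeness to Hspa5, Dnajb11 after its values were seen, and Dnajc3 for its call under cisplatin. Of the 18 other listed genes, 9 were higher in FAN1KO saline with no overlap, as were 4.62% of all genes tested, and none of the 18 was called by limma.

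Of the 18 other endoplasmic reticulum sensor, chaperone and folding genes, 0 were called between genotypes in saline by limma, and voom also called 0. An unadjusted p under 0.05 by limma was found for 9 of the 18, against 1255 of all 14972 genes tested. Their median log2 difference was 0.39, against −0.04 for all genes, and 16 of 18 were above 0. Creld2 (0.95, limma adjusted p 0.107), Hyou1 (0.85, 0.109) and Dnajb11 (0.47, 0.0945) were not called, but all 3 were with a Y-linked covariate, and Creld2 was without the 4 libraries with Y-linked RNA (0.0261). Under cisplatin the median was 0.06, 0 genes were called higher, and 1, Dnajc3, an inhibitor of the PERK kinase, was called lower (log2 difference −0.52, limma adjusted p 0.0244). That call was lost without each of 5 libraries, with limma adjusted p up to 0.0725 without wild-type cisplatin replicate 2. Among all genes 19.6% were called higher and 4.37% lower between genotypes under cisplatin. From saline to cisplatin in FAN1KO kidneys 4 were called lower, Creld2, Hyou1, Dnajc3 and Dnajb11, where 4.90% of all genes were. The list median was −0.17 against 0.37 for all genes. With median-ratio scaling 14 of the 18 were called lower, while the lower calls among all 14972 genes went from 733 to 2101. The call for Creld2 was lost without FAN1KO cisplatin replicate 1 (limma adjusted p 0.0581), and that for Hyou1 without this library (0.0531) or FAN1KO saline replicate 2 (0.0567). Dnajb11 lost its call on leaving out each of 4 libraries, FAN1KO saline replicates 2 (limma adjusted p 0.0791) and 3 (0.0544) and FAN1KO cisplatin replicates 1 (0.0752) and 2 (0.0758). Dnajb11 was named here after its values were seen.

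Genes of 10 components of endoplasmic reticulum-associated degradation, which removes misfolded proteins, gave 1 call between genotypes under cisplatin, where 19.6% of all genes were called higher. This was Os9 (0.44 higher on the log2 scale, limma adjusted p 0.0180), and the list median was 0.03. The Os9 call was lost with median-ratio scaling (limma adjusted p 0.611) and without each of 3 libraries, up to 0.0656 without FAN1KO cisplatin replicate 1. In saline 0 of the 10 were called and 0 had an unadjusted p under 0.05.

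Of 9 genes for the eIF2 kinases, eIF2 itself, the phosphatase subunits and the mitochondrial relay of Oma1 and Dele1, 2 were called higher and 0 lower in FAN1KO kidneys when the genotypes were compared under cisplatin, where 19.6% of all genes were called higher. Ppp1r15a, which encodes the inducible phosphatase subunit GADD34 that restores translation, read 34.3, 27.3 and 20.2 TPM against 9.18, 15.7 and 15.3 TPM (log2 difference 0.98, limma adjusted p 0.0164). Eif2ak3, the PERK kinase, read 21.9, 17.3 and 21.5 TPM against 13.0, 17.4 and 13.8 TPM (0.44, limma adjusted p 0.0477), and its groups overlapped. The Ppp1r15a call was lost without each of 3 libraries, with limma adjusted p up to 0.0769 without FAN1KO cisplatin replicate 1. Eif2ak3 was lost with median-ratio scaling (limma adjusted p 0.501) and without the 4 libraries with Y-linked RNA (0.151). It was also lost on leaving out each of 9 of the 12 libraries, with limma adjusted p up to 0.166 without FAN1KO cisplatin replicate 1. The list median, 0.02, was below that of all genes.

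Of 22 other targets of ATF4 20 were tested. In FAN1KO cisplatin kidneys 8 were called higher and 2 lower than in wild-type cisplatin kidneys, while 10 did not pass. Among all genes 19.6% were called higher and 4.37% lower. The list median was 0.82 against 0.24 for all genes, and with median-ratio scaling 6 were called higher and 2 lower. Eif4ebp1, a translation repressor, read 146, 120 and 111 TPM against 18.2, 37.6 and 34.1 TPM (log2 difference 2.08, limma adjusted p 0.00110). Gdf15, a secreted stress hormone, read 238, 247 and 192 TPM against 39.9, 66.8 and 67.6 TPM (1.97, limma adjusted p 0.000427). Ddit4, an inhibitor of the growth kinase complex mTORC1, read 149, 110 and 67.4 TPM against 19.6, 50.6 and 37.4 TPM (1.60, limma adjusted p 0.00998). For each of the 3, all FAN1KO cisplatin libraries were above all wild-type cisplatin libraries.

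The 2 targets called lower were Shmt2, given above, and Cth, which makes cysteine from cystathionine. Cth read 109, 115 and 125 TPM in FAN1KO and 197, 208 and 245 TPM in wild-type cisplatin kidneys (log2 difference −0.89, limma adjusted p 0.00944). Within FAN1KO kidneys, cisplatin against saline called 13 of the 20 higher and 2 lower, where 34.9% and 4.90% of all genes were. In wild-type kidneys 2 were called higher, Gdf15 (2.11, limma adjusted p 0.0173) and Sesn2, a leucine sensor that p53 also induces (1.24, limma adjusted p 0.0222), named after their values were seen. Among all genes 0.0601% were called higher here. Without wild-type saline replicate 1 the limma adjusted p of Gdf15 was 0.107, and without wild-type cisplatin replicate 3 that of Sesn2 was 0.147. Limma called 0 genes here without wild-type saline replicate 1, 2 or 3, or without wild-type cisplatin replicate 2 or 3. It also called 0 when fitted to the 6 wild-type libraries alone, or when replicate numbers were treated as blocks. Both calls were thus lost in each of these fits. In saline 0 of the 20 were called between genotypes and 0 had an unadjusted p under 0.05.

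Of 20 cytosolic aminoacyl-tRNA synthetases, which charge tRNA with amino acids, 13 were called higher and 0 lower between genotypes under cisplatin. Among all genes 19.6% were called higher and 4.37% lower. The median log2 difference of the 20 was 0.44. Vars, for valine, read 65.1, 55.7 and 50.1 TPM against 20.0, 27.6 and 28.9 TPM (log2 difference 1.14, limma adjusted p 0.000952). Cars, for cysteine, was 0.75 higher (limma adjusted p 0.0152), and Lars, for leucine, 0.72 higher (0.00496). All genes had a median of 0.24 here, and with median-ratio scaling 2 of the 20 were called and the list median was 0.14. Cars then had a limma adjusted p of 0.0572, and 0.0648 on unscaled values without FAN1KO cisplatin replicate 1. Leaving out wild-type cisplatin replicate 1 also ended the Cars call. In saline 1 of the 20 was called between genotypes, Eprs, which was lower in FAN1KO kidneys (−0.62, limma adjusted p 0.0468; 0.335 with median-ratio scaling), and it was named after its values were seen. Cars was also the tested gene whose profile was most like that of Atf4, with a root mean square difference of 0.0924.

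Chaperones and proteases of mitochondria, whose genes respond to misfolded protein in that organelle, were not higher. Of 7, 0 were called higher and 3 lower in FAN1KO than in wild-type cisplatin kidneys, where 19.6% and 4.37% of all genes were. The list median was −0.43. Hspd1, the chaperonin HSP60, read 153, 172 and 202 TPM against 417, 288 and 270 TPM (log2 difference −0.87, limma adjusted p 0.00977). Clpx, a protease subunit, fell by 0.53 on the log2 scale (limma adjusted p 0.0201, and 0.0570 with median-ratio scaling). The Clpx call was lost without each of 3 libraries, with limma adjusted p up to 0.0788 without FAN1KO cisplatin replicate 1. The third was Dnaja3, a mitochondrial co-chaperone, at −0.43 (limma adjusted p 0.00442), named after its values were seen. In wild-type kidneys 0 of the 7 were called after cisplatin and 0 had an unadjusted p under 0.05.

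**Figure D5:**
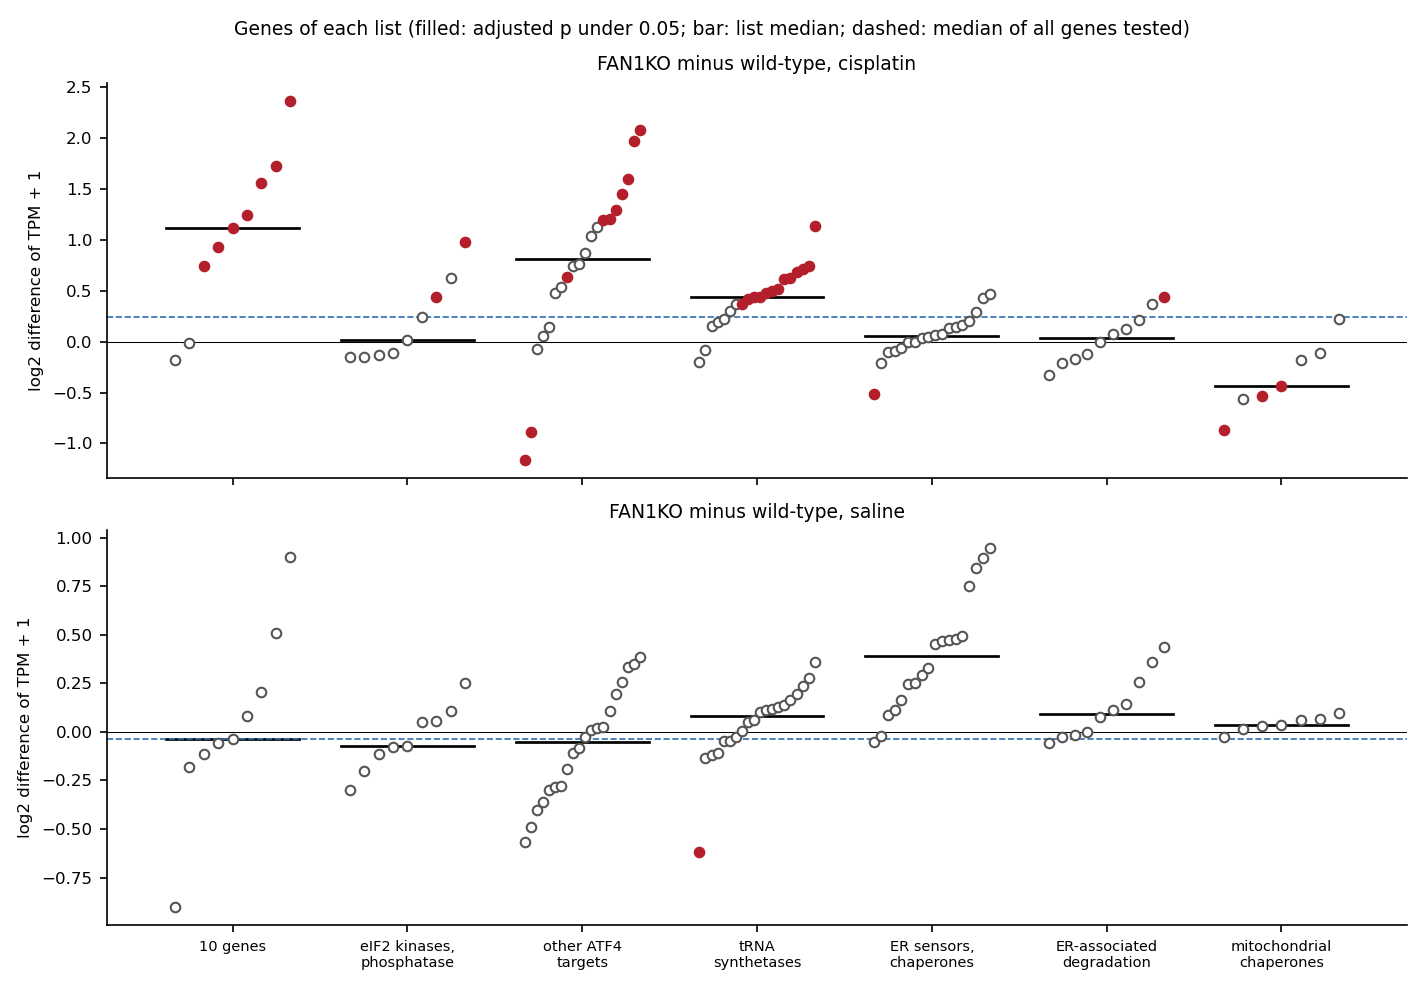
Log2 difference between FAN1KO and wild-type kidneys for each tested gene of the 10 genes and of 6 pathway lists, under cisplatin (top) and saline (bottom, on its own scale); filled points have a limma adjusted p under 0.05, bars are list medians and dashed lines the medians of all genes tested. Under cisplatin the medians run from −0.43 for mitochondrial chaperones to 1.12 for the 9 tested of the 10 genes, and in saline the list with the highest median, 0.39, is that of the endoplasmic reticulum chaperones.

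Over the 6 lists, 24 of 84 genes were called higher and 6 lower between genotypes under cisplatin, where 19.6% and 4.37% of all genes were, and the median over the lists was 0.21 against 0.24 for all genes. With median-ratio scaling 9 were called higher and 7 lower. In the interaction 6 were called with a positive value, Gdf15, Eif4ebp1, Vars, Lars, Sars and Qars, and 1 with a negative value, Dnaja3. Among all genes 5.22% were called with a positive and 1.02% with a negative value, so these counts lie near the shares of all genes. The lists share no gene with the 10.

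Markers of 6 cell types were read between genotypes under cisplatin, where 19.6% of all genes were called higher and 4.37% lower. Of 6 proximal tubule markers 4 were called lower in FAN1KO than wild-type cisplatin kidneys (Lrp2, Cubn, Slc34a1 and Slc22a6), with Lrp2 at −1.44 on the log2 scale (limma adjusted p 0.00271). The 5 leukocyte markers summed to 20.3 to 60.2 TPM in FAN1KO cisplatin and 6.68 to 20.5 TPM in wild-type cisplatin kidneys, and 1 of them, Cd68, was called higher (1.56, limma adjusted p 0.0499; 0.199 without FAN1KO cisplatin replicate 1). With median-ratio scaling 3 proximal tubule and 0 leukocyte markers were called. Of 5 markers of the distal nephron and collecting duct 1, Aqp2, was called higher (1.39, limma adjusted p 0.0455). None of 3 podocyte, 3 endothelial and 4 fibroblast markers was called by limma or by voom, with 0 at an unadjusted p under 0.05 by limma and list medians of −0.42, −0.97 and 0.13, but all 3 endothelial markers were called lower without the 4 libraries with Y-linked RNA. The endothelial markers summed to 8.42 to 29.4 TPM in FAN1KO cisplatin and 16.2 to 73.6 TPM in wild-type cisplatin kidneys. No marker of any list was at 0 in any library. The part of these cell types in the differences of the 10 genes was not tested.

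The profiles most like those of the other genes were mostly of genes outside the pathway lists. Beside Cars, Atf4 had Smc2 (0.0927). For Atf3 they were Adam8 (0.154) and Relb (0.198), for Ddit3 Lpcat2 (0.155), for Trib3 Nipal1 (0.169) and Tes (0.170), and for Asns Sec14l2 (0.149). Phgdh and Psat1 had no gene closer than 0.258 (Gxylt2) and 0.293 (Polr3e), and Chac1 none closer than 0.225 (Rps6ka6). These are descriptions over 12 libraries that share the 4 groups.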

How the data were processed

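RNA sequencing of 12 whole kidneys, flash frozen, was analysed from 1 table of TPM that the authors deposited for 27179 genes, listed by NCBI Gene number. The build mm10 and limma are named in the submitters' processing notes, and the aligner, counter and annotation are not given in the sources used here. Groups and replicate numbers came from the labels; all 12 columns were used (0 left out). RefSeq (GRCm38.p6) gave names for 25275 of the genes, positions and promoters. The 10 genes and the gene lists were chosen with earlier results of these data known.

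Genes with at least 1 TPM in at least 3 libraries (14972) were fitted as log2(TPM + 1) with limma 3.58.1 in R 4.3.3 (4 group means over 12 libraries, empirical Bayes with trend), with Benjamini-Hochberg adjustment over all genes and a threshold of 0.05, called here an adjusted p. Log2 differences are on this scale and understate changes of low genes. Single genes were also tested by the two-sided exact permutation test. TPM are shares of a fixed total, so each fit was repeated after median-ratio scaling. Whole reads were recovered for all 14972 genes (tolerance 0.03 of a read), against 1 of 300 genes moved at random. They serve for depth and for voom.

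Named genes were the 10, and from each list up to 3 rises and 2 falls with the largest log2 difference among those called between genotypes under cisplatin, and the 2 tested genes with the profile most like each of the 10 with a range of at least 1. Other alternatives were a pseudocount of 0.1, no filter, only the 6 libraries compared, the replicate number as a block, no trend, a covariate of Y-linked RNA, and each library left out; voom and leaving out the 4 libraries with Y-linked RNA were added after seeing the data. Steps were tested on simulated data. Tables and figures were made in Python 3.11.15 (matplotlib 3.10.9, pandas 2.3.3, numpy 2.4.6).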

Additional observations from a re-analysis of the deposited data

Results flagged for a closer look

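By limma's interaction term, the response to cisplatin was called different between genotypes for 4 of the 9 genes tested. Among all genes 6.24% were called, 5.22% with a positive value. The difference of the 2 responses, FAN1KO minus wild-type, was 2.42 on the log2 scale for Phgdh (limma adjusted p 0.0134), 1.83 for Asns (0.0185), 1.60 for Trib3 (0.0291) and 1.91 for Atf3 (0.0367). For Asns, 0.90 of that difference lies in saline, where the FAN1KO libraries were below the wild-type libraries by that amount, and 0.93 under cisplatin, where they were above. For Phgdh, Trib3 and Atf3 the genotypes overlapped in saline. Phgdh kept its call without each of the 12 libraries, while Asns, Trib3 and Atf3 lost theirs without each of 2, 7 and 8 libraries. The Trib3 and Atf3 calls were also lost with voom and with a pseudocount of 0.1.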

How the results depend on the processing

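The 7 genes called between genotypes under cisplatin numbered 6 or 7 under the 9 alternative settings and 4 to 7 with 1 library left out, and the 7 called in FAN1KO kidneys after cisplatin 6 to 8. The 0 calls in wild-type kidneys stayed at 0 under all settings. In saline the 0 calls became 1 with median-ratio scaling, 2 with a Y-linked covariate and 3 without the 4 libraries with Y-linked RNA. The 4 interaction calls became 2 with a pseudocount of 0.1, 2 with voom, 7 with the Y-linked covariate, 5 with median-ratio scaling, 6 without the 4 libraries with Y-linked RNA and 1 to 4 with 1 library left out. The 30 calls in the pathway lists became 16 with median-ratio scaling and 15 to 31 with 1 library left out. The causes were not tested.

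Same-numbered libraries are not stated to be related. Their deviations from group means correlated at −0.24, −0.21, −0.14 and −0.18 on average in the 4 comparisons of groups, with single pairs from −0.61 to 0.60. In each comparison the libraries with Y-linked RNA had different replicate numbers, so these values cannot show whether replicate numbers pair the libraries. With the replicate number as a block, calls were 7 and 0 between genotypes under cisplatin and saline, 7 and 0 after cisplatin in FAN1KO and wild-type, 3 in the interaction (Atf3 lost) and 26 in the lists.

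Among 576 values of single genes under other settings 526 kept their direction and side of the threshold, and among 780 with 1 library left out 686 did. Signs reversed in 10 and 31, all for small differences that limma did not call on all 12 libraries. Median-ratio scaling gave −0.0835 for Atf4, −0.0937 for Asns, −0.00311 for Phgdh and −0.0194 for Hspa5 after cisplatin in wild-type kidneys. Voom gave −0.0174 for Atf4 and −0.0596 for Asns there, and 0.000299 for Phgdh between genotypes in saline. Without the 4 libraries with Y-linked RNA, Chac1 was at 0.13 and Phgdh at −0.0282 after cisplatin in wild-type kidneys, and the Psat1 interaction was at 0.53 (limma adjusted p 0.0477). With 1 library left out, differences ran from −0.17 to 0.23 for Hspa5 between genotypes under cisplatin. Between genotypes in saline they ran from −0.0567 to 0.18 for Atf4, −0.41 to 0.0464 for Atf3, −0.16 to 0.18 for Trib3, −0.58 to 0.15 for Psat1 and −0.33 to 0.10 for Phgdh. After cisplatin in wild-type kidneys they ran from −0.0815 to 0.21 for Atf4, −0.30 to 0.0817 for Trib3, −0.14 to 0.18 for Asns, −0.27 to 0.24 for Chac1, −0.19 to 0.24 for Phgdh and −0.16 to 0.24 for Hspa5, and for the Psat1 interaction from −0.33 to 0.40. Depth limits Fgf21, Trib3 and Chac1, which rest on few reads.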
